A study of Mus musculus with 12 samples.

Results

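The 10 genes described here take up, bind, make and store fatty acids. Cd36 and Lpl act in uptake, Fabp3, Fabp4 and Fabp5 bind fatty acids in the cytosol, Acly, Fasn, Scd1 and Scd2 act in synthesis and desaturation, and Plin2 coats lipid droplets. They were chosen by name for these roles, with earlier results of these data known, and all 10 were found among the 21743 genes of the count table. Their messenger RNA was measured in single cells by Drop-seq, a droplet method whose bead primers tag the RNA of a cell with a cell barcode and each molecule with its own identifier (UMI), which takes PCR duplicates out of the count.

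Both mice of the study had the genotype MMTV-Cre; Brca1flox/flox on a C57BL/6 and 129/Sv mixed strain, and 2 mice were used. The fourth pair of mammary glands (MG1 in mouse 1, MG2 in mouse 2) and a mammary tumor (MT1, MT2) were taken from each mouse, dissociated, and enriched for epithelium by depletion of hematopoietic and endothelial cells. MG1 and MG2 have 2 libraries each, with 818 and 2335 cells, MT1 has 5 libraries with 7690 cells and MT2 has 3 with 10314. All groups carry the floxed Brca1 alleles and the Cre, which the MMTV promoter drives mainly in mammary epithelium, so no group has intact Brca1 as a control, and the glands are those of mice that already bore a tumor. Within a group, the libraries are of the same animal. P-values from libraries therefore cover the spread between libraries, which may be technical, and a difference between gland and tumor of 1 mouse cannot be told apart from a difference between library runs. In a sum over cells, fewer cells of a type and less RNA per cell cannot be told apart either.

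Fatty acids reach a cell from the blood or are built inside it. Lipoprotein lipase, the product of Lpl, frees them from circulating triglyceride, CD36 helps them across the membrane, and fatty acid binding proteins carry them in the cytosol. For synthesis, ATP citrate lyase (Acly) provides acetyl-CoA, fatty acid synthase (Fasn) builds the saturated chain, and stearoyl-CoA desaturases (Scd1, Scd2) put in a double bond. The secretory epithelium of the mammary gland runs both routes to make milk fat, whose droplets are coated by perilipin 2 (Plin2). In other tissues Cd36 and Fabp4 are well known in capillary endothelium and fat cells, Fabp3 in heart and muscle, and Fabp5 in skin.

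Total depth ran from 693333 to 14841414 UMIs per library, over 105 to 4874 cells with a median of 1784 to 4842 UMIs per cell. Pairs of libraries shared 0 to 7 cell barcodes. Brca1 itself had 0 UMIs in both MG1 libraries (which allows up to 0.792 CPM, in counts-per-million, over the group), 10 and 11 in MG2, 29 to 53 in MT1 and 125 to 157 in MT2. Since 3′ ends were counted, these values say nothing of the excision of the floxed exons. Clustering gave 12 clusters, which were named only where their markers allowed it. In the 4 groups (MG1, MG2, MT1, MT2 in this order) the luminal secretory-like class had 278, 916, 25 and 2 cells and the luminal hormone-sensing-like class 268, 929, 68 and 0. The endothelial-like class had 20, 87, 93 and 44 cells and the fibroblast-like class 126, 136, 133 and 304. The tumor clusters, with 90% or more of their cells from tumor libraries, held 7365 MT1 and 9786 MT2 cells beside 14 and 48 cells of the glands. Of these, clusters 2 and 5 of MT1 were epithelial-like, while cluster 6 of MT1 (led by Prl2c3 and Cav1) and clusters 1, 3 and 4 of MT2 (led by Fn1, by Cenpe and by Tcp11l1) met no marker list and stay unnamed. The 10 genes were left out of the genes used for clustering.

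The promoters of 5 of the 10 genes (Cd36, Fabp3, Acly, Fasn and Plin2) were found in the RefSeq table of the GRCm38.p6 build. Those of Cd36 and Fabp3, which were both low in the tumors of both mice, and of Plin2, which went opposite ways in the 2 tumors, are shown 5′ to 3′ on the gene's strand, up to 250 bases before the RefSeq start. The Cd36 window lies inside the annotated span of that gene (chr5:17781690-17888801, minus strand), so it precedes an inner start and not the outermost one. Capitals mark matches to CCAAT or GGGCGG. For Fabp3 the 107 bases furthest from the start are shown, since the other 143 lie in exons annotated for the gene.
Cd36, chr5:17835897-17836146, minus strand: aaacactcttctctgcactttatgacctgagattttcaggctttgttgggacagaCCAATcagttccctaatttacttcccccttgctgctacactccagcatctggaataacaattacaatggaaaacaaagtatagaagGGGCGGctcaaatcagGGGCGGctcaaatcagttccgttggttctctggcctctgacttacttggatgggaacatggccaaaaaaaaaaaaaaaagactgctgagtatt
Fabp3, chr4:130308488-130308594, plus strand: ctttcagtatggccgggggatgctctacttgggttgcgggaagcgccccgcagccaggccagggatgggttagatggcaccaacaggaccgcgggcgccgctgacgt
Plin2, chr4:86670061-86670309, minus strand: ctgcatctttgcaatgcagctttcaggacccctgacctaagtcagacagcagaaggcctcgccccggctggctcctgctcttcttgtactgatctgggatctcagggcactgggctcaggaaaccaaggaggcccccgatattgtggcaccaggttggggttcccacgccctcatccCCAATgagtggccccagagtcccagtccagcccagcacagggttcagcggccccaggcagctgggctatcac

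The letters searched, on both strands, were CCAAT (present in 33.8% of 32851 promoters over the same 250 bases), GGGCGG (32.7%), CACGTG (6.02%), TATAAA (12.4%), TTCNNNGAA (7.02%) and the direct repeat bound by PPAR and RXR (0.0335%). The Cd36 window held CCAAT 195 bases before the start and GGGCGG at 109 and 93 bases, and the Plin2 window held CCAAT at 73 bases. The Acly window (chr11:100528001-100528250, minus strand) held 4 matches to GGGCGG, 1 on the gene's strand at 27 bases and 3 on the other strand at 117, 88 and 76 bases. The Fasn window (chr11:120824548-120824797, minus strand) held 3 matches to CCAAT, at 62 bases on the gene's strand and at 90 and 59 bases on the other, where those at 62 and 59 overlap. None of the 6 was found in the stretch shown for Fabp3. The matches are a description of letters and not of bound sites.

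Before gland and tumor were compared, the MG1 libraries were set side by side, since they were unlike for several of the genes. In cells outside the stromal clusters, Fabp3 was at 2.50 CPM in MG1 replicate 1 and 254 CPM in MG1 replicate 2. Cd36 was at 2.08 and 62.2 CPM, Lpl at 15.4 and 74.3 CPM, and Fasn at 25.0 and 79.5 CPM. Scd2 went the other way, with 53.7 CPM in replicate 1 and 6.91 CPM in replicate 2, while Scd1 was at 120 and 118 CPM. MG1 replicate 2 has 105 cells and replicate 1 has 713. Where leaving out 1 library of this pair moved a called value from mouse 1 by more than 1.5-fold or changed its call, the value without it is given below. A gland then has 1 library, which the fit assumes to vary like the libraries of the other groups, so such a p-value has no replicate of that gland behind it. In the comparisons of gland and tumor that come first, CPM of the genes are scaled by TMM and were taken over the 20027 cells left without the stromal clusters (immune-like, fibroblast-like and endothelial-like). The summed levels of marker lists and the levels by cell class are CPM of plain UMI totals without TMM scaling, so they are read only against each other.

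**Figure D1:**
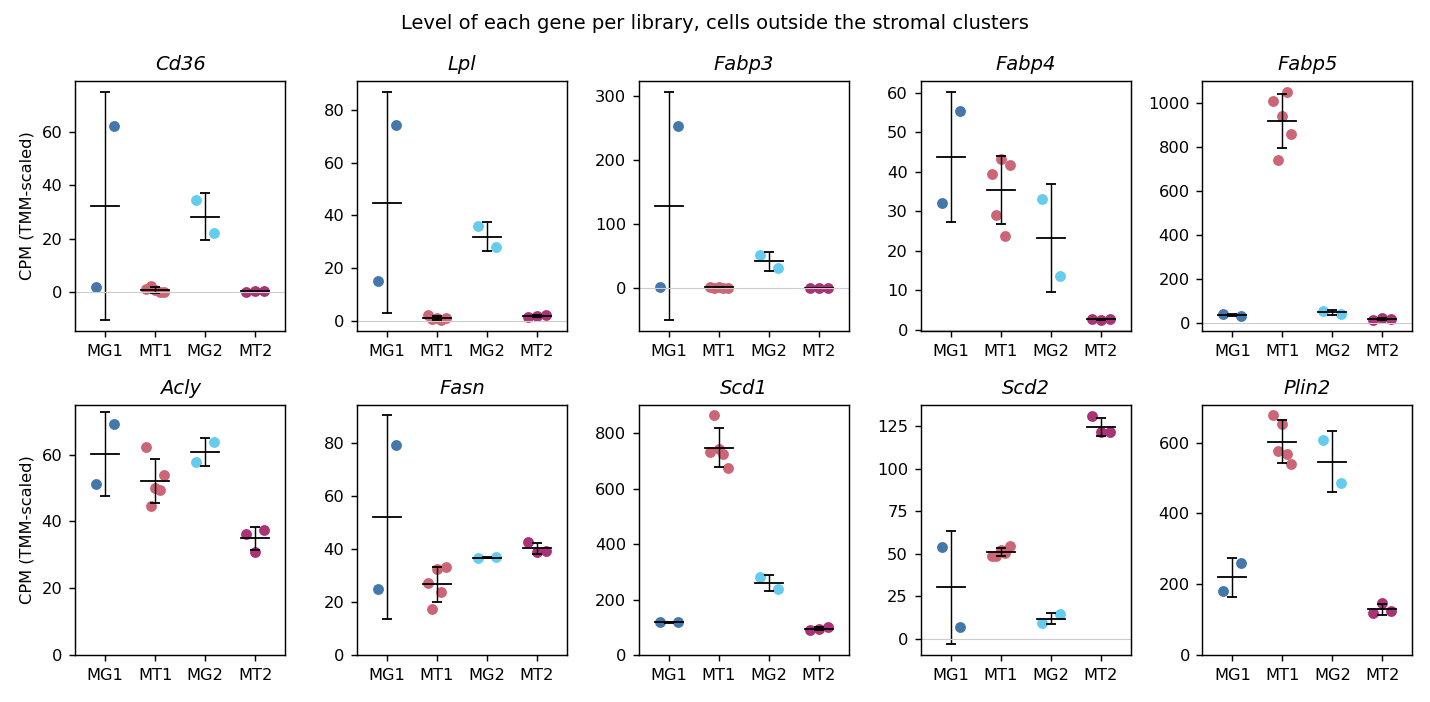
Level of each gene in every library (CPM of UMIs after TMM scaling) over cells outside the stromal clusters, in MG1, MG2, MT1 and MT2. Points are libraries, the line is the group mean and the bars are SD. The MG1 points lie far apart for Fabp3 (2.50 and 254), Cd36 and Scd2, and the 5 MT1 points for Fabp5 (740 to 1048) lie above all others.

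In mouse 1 the tumor had more Fabp5, Scd1 and Plin2 than the gland and less Fabp3, Cd36 and Lpl. In mouse 2 the tumor had more Scd2 and less of 8 of the 10 genes, Fabp5, Scd1 and Plin2 among them. Cd36, Lpl and Fabp3 were called lower in both tumors, of which the calls of Cd36 and Fabp3 in mouse 1 were lost without MG1 replicate 2. Fitted on the libraries of mouse 1 alone, these 2 genes did not pass the low-count filter and were not tested, and Lpl was again called lower. The binding protein Fabp5, the desaturase Scd1 and the droplet protein Plin2 were called in opposite directions in the 2 mice, and the fold change of Scd2 was above 0 in both. Of these opposite calls, Plin2 in mouse 1 and Scd1 in mouse 2 depend on which gland cells are compared. By edgeR's quasi-likelihood test over all 13652 genes tested (adjusted p under 0.05), 6 of the 10 genes were called in MT1 against MG1, 3 higher and 3 lower, where 59.3% of all genes tested were called (32.2% higher, 27.1% lower). In MT2 against MG2, 9 were called, 1 higher and 8 lower, where 67% of all genes were called (32.7% higher, 34.2% lower). The median log2 fold change of the 10 genes was −0.16 in mouse 1, beside 0.11 over all genes, and −1.76 in mouse 2, beside −0.05. The share called in mouse 1 is near that of all genes. The libraries of tumor and gland did not overlap for 5 of the 10 genes in mouse 1, where 62.5% of all genes did not, and for all 10 in mouse 2, where 81% did not. Markers of several cell types moved with these changes. In the cells compared, the 14 luminal secretory markers summed to 17736 and 17956 CPM in MG2 and to 415 to 497 CPM in MT2, where 12 or 13 of them had UMIs and Wap was at 0 in all 3 libraries, and the 9 epithelial markers summed to 12477 and 12428 CPM in MG2 and to 645 to 878 CPM in MT2. In mouse 1 the secretory list summed to 8869 and 16645 CPM in MG1 and to 7983 to 12004 CPM in MT1, and the epithelial list to 15030 and 13482 CPM and to 7461 to 9737 CPM. Other lists moved further there. The 11 luminal hormone-sensing markers summed to 2905 and 2055 CPM in MG1 and to 106 to 174 CPM in MT1, and the 10 basal markers to 840.2 and 876 CPM and to 193 to 210 CPM. In mouse 2 the hormone-sensing list went from 1984 and 2100 CPM in MG2 to 55.5 to 65.1 CPM in MT2, where 6 of its genes had UMIs, and the basal list from 852 and 771 CPM to 27.9 to 28.9 CPM, where Krt5 was at 0. The 10 fibroblast markers summed to more in that tumor, 306 and 336 CPM in MG2 against 3326 to 3764 CPM in MT2, while in mouse 1 they were at 722 and 460.1 CPM in MG1 and at 338 to 461 CPM in MT1. Of 10 adipocyte markers 4 could be read (Lipe, Retn, Plin4 and Car3). In the same cells they summed to 13.4 to 30.9 CPM in the 4 gland libraries and to 1.10 to 3.93 CPM in the 8 tumor libraries. Each gland sum rests on 1 or 2 genes, since Retn was at 0 in all 4 gland libraries, Plin4 in both of MG1, and Car3 in MG1 replicate 2 and both of MG2. In MG1 replicate 2 this leaves Lipe alone. Retn went the other way, with UMIs in every MT2 library and in most of MT1, and so did Car3 in mouse 2. The share of UMIs from mitochondrial genes, a sign of RNA quality, was 11.7% and 9.81% in MG1, above the 5.25% to 8.89% of the MT1 libraries, and 6.66% and 7.90% in MG2 beside 4.58% to 7.85% in MT2. The part of these cell types and of RNA quality in the changes was not tested.

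**Figure D2:**
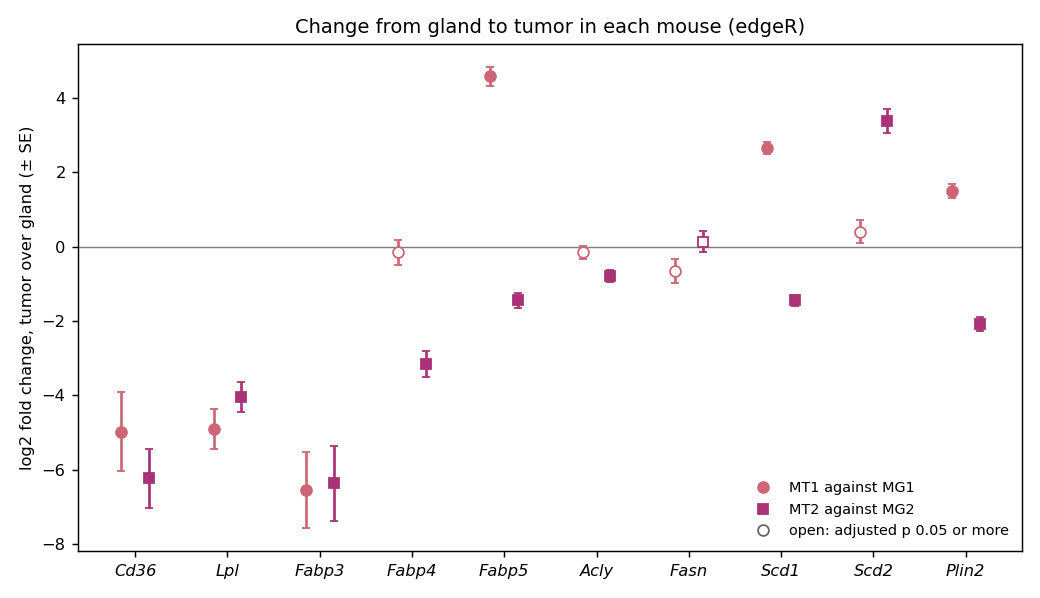
Log2 fold change of each gene in MT1 against MG1 and in MT2 against MG2 (points, bars are the standard error), by edgeR over libraries. Open points have an adjusted p of 0.05 or more. Fabp5, Scd1 and Plin2 are above 0 in mouse 1 (4.58, 2.65 and 1.49) and below 0 in mouse 2 (−1.44, −1.45 and −2.08).

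Cd36, the membrane receptor for fatty acid uptake, lies at chr5:17781690-17888801 on the minus strand and fell in both mice. Its level was 34.4 and 22.1 CPM in the MG2 libraries, and 0.15, 0.46 and 0.47 CPM in MT2. The groups did not overlap, and MT2 was 74.8-fold lower (log2 fold change −6.22, SE 0.80, edgeR adjusted p 1.82e-06). In mouse 1 it was at 2.08 and 62.2 CPM in MG1, and at 1.18, 2.35, 0.63, 0 and 0 CPM in MT1. There MG1 replicate 1 lay within the range of the tumor. MT1 was 31.4-fold lower (log2 fold change −4.97, SE 1.06, edgeR adjusted p 0.000636), and the log2 fold change was −6.46 without MG1 replicate 1 and −1.67 without MG1 replicate 2, where it did not pass (edgeR adjusted p 0.222).

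Lpl (chr8:68880491-68907448, plus strand), the lipase that releases fatty acids from lipoproteins, fell in both mice whichever library was left out. It was at 15.4 and 74.3 CPM in MG1 and at 2.35, 0.78, 1.41, 0.59 and 1.16 CPM in MT1. It was at 35.8 and 28.2 CPM in MG2 and at 1.55, 1.92 and 2.28 CPM in MT2. In both mice every gland library lay above every tumor library. The log2 fold change was −4.90 in mouse 1 (SE 0.54, edgeR adjusted p 8.03e-07) and −4.05 in mouse 2 (SE 0.40, edgeR adjusted p 7.00e-08), that is, 29.95-fold and 16.6-fold lower. The size in mouse 1 depends on the MG1 library taken, with a log2 fold change of −5.87 without MG1 replicate 1 and −3.70 without MG1 replicate 2, and it was called in both cases.

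Fabp3, the heart-type binding protein (chr4:130308595-130315463, plus strand), was low in all 8 tumor libraries. MG2 had 52.6 and 30.8 CPM and MT2 had 0.29, 0.23 and 0.94 CPM, which is 82.5-fold lower (log2 fold change −6.37, SE 0.99, edgeR adjusted p 1.87e-05, and −5.73 without MG2 replicate 1 and −7.20 without MT2 replicate 3). MT1 had 1.18, 0.39, 1.56, 0.98 and 0.87 CPM against 2.50 and 254 CPM in MG1. The ranges did not overlap in either mouse, but MG1 replicate 1 lay close to the tumor. The log2 fold change in mouse 1, −6.54 (SE 1.02, edgeR adjusted p 3.46e-05), became −7.73 without MG1 replicate 1 and −1.17 without MG1 replicate 2, where it did not pass (edgeR adjusted p 0.257).

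Fabp4, the adipocyte-type binding protein (chr3:10204088-10208576, minus strand), fell in mouse 2 and was not called in mouse 1. MG2 had 33.0 and 13.6 CPM and MT2 had 2.73, 2.45 and 2.60 CPM, an 8.91-fold lower level without overlap (log2 fold change −3.16, SE 0.34, edgeR adjusted p 2.38e-07, and −2.18 without MG2 replicate 1). MG1 had 32.0 and 55.3 CPM and MT1 had 39.4, 29.0, 43.1, 23.7 and 41.6 CPM. These ranges overlapped (log2 fold change −0.16, edgeR adjusted p 0.699). With stromal cells kept in the sums, the log2 fold change of Fabp4 in mouse 1 was −2.22 (edgeR adjusted p 1.43e-08). This gene was the highest by fold in the endothelial-like cluster, so its level outside the stromal clusters is given beside the endothelial marker list, of which 6 to 11 of 11 genes kept UMIs there. The summed level of that list was 19.6 and 36.4 CPM in MG1, 24.4 and 32.6 in MG2, and 9.69 to 12.6 and 5.52 to 7.11 in the libraries of MT1 and MT2. Its part in the values of Fabp4 and Cd36 was not tested.

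Fabp5, the epidermal-type binding protein (chr3:10012548-10016607, plus strand), lies close to Fabp4 on the chromosome and had the largest difference of the 10 genes between the tumors. The MT1 libraries had 1008, 740, 939, 1048 and 858 CPM (919 ± 123, SD, n = 5), while those of MT2 had 14.7, 21.1 and 18.7 CPM (18.2 ± 3.23, n = 3). The gland libraries lay close together, with 41.2 and 32.8 CPM in MG1 and 57.1 and 41.8 CPM in MG2. No tumor library fell within the range of the gland of its mouse. Fabp5 was 23.9-fold higher in MT1 than in MG1 (log2 fold change 4.58, SE 0.25, edgeR adjusted p 1.74e-10) and 2.72-fold lower in MT2 than in MG2 (log2 fold change −1.44, SE 0.20, edgeR adjusted p 5.40e-06). Of the 118 Fabp5 UMIs of MG1 outside the stromal clusters, 62 (52.5%) were in the 14 gland cells that fell in tumor clusters. All of these cells were of MG1 replicate 1. Over the classes found in both MG1 libraries, stromal ones included, Fabp5 was at 16.8 CPM in replicate 1 and 28.3 CPM in replicate 2, without TMM scaling. Of the 30-base stretches of the longest Fabp5 transcript, 27.6% also occur in the pseudogene Gm6166. How the counting treated such reads is not given in the sources used here, and Gm6166 had 2447 UMIs in the whole table, equal to 12.5% of the 19519 of Fabp5.

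Among the synthesis genes, Acly (chr11:100476353-100528000, minus strand), which makes cytosolic acetyl-CoA, was called lower in mouse 2 and not called in mouse 1. It had 51.2 and 69.1 CPM in MG1, and 62.3, 44.7, 50.001, 49.3 and 53.9 CPM in the MT1 libraries (log2 fold change −0.15, edgeR adjusted p 0.485). MG2 had 57.8 and 63.7 CPM and MT2 had 36.3, 31.0 and 37.4 CPM, 1.74-fold lower (log2 fold change −0.80, SE 0.16, edgeR adjusted p 0.000326). The ranges overlapped in mouse 1 and not in mouse 2. Without MG2 replicate 2 the log2 fold change was −0.52 and did not pass (edgeR adjusted p 0.0553).

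Fasn (chr11:120805846-120824547, minus strand), which builds palmitate, was called in neither mouse by edgeR with all libraries. DESeq2 called it lower in MT1 against MG1 (log2 fold change −1.004, DESeq2 adjusted p 0.0106), so the call in mouse 1 depends on the tool. MG1 had 25.0 and 79.5 CPM and MT1 had 27.0, 17.2, 32.5, 23.9 and 33.2 CPM, which overlapped (log2 fold change −0.65, edgeR adjusted p 0.0971). Without MG1 replicate 1 the log2 fold change was −1.43 (edgeR adjusted p 0.000875), and without MG1 replicate 2 it was 0.14. Against luminal secretory-like gland cells alone it was also called lower (−1.78, edgeR adjusted p 0.0015), and against hormone-sensing-like gland cells alone higher (0.84, edgeR adjusted p 0.0494). MG2 had 36.6 and 36.9 CPM and MT2 had 42.7, 38.8 and 39.2 CPM (log2 fold change 0.13, edgeR adjusted p 0.692). Against hormone-sensing-like gland cells alone the value in mouse 2 was 1.23 and passed (edgeR adjusted p 0.000223).

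Scd1 (chr19:44394455-44407879, minus strand), a desaturase of lipogenic tissue, rose in MT1 and fell in MT2. The MG1 libraries had 120 and 118 CPM and those of MT1 732, 865, 743, 725 and 676 CPM, a 6.29-fold higher level (log2 fold change 2.65, SE 0.17, edgeR adjusted p 1.49e-09). The MG2 libraries had 281 and 238 CPM and those of MT2 90.8, 94.8 and 99.8 CPM, a 2.73-fold lower level (log2 fold change −1.45, SE 0.15, edgeR adjusted p 1.17e-07). Neither pair of groups overlapped. Against hormone-sensing-like gland cells alone, the value in mouse 2 was −0.28 and did not pass (edgeR adjusted p 0.252).

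Scd2 (chr19:44293674-44306864, plus strand), the neighbouring desaturase gene, known in brain and in early life, showed another pattern. MT2 had 131, 121 and 122 CPM against 9.56 and 14.3 CPM in MG2, a 10.4-fold higher level (log2 fold change 3.38, SE 0.33, edgeR adjusted p 5.13e-08). MT1 had 48.8, 48.6, 52.3, 50.7 and 54.7 CPM, and the MG1 libraries, at 53.7 and 6.91 CPM, lay on either side of most of them (log2 fold change 0.40, edgeR adjusted p 0.262). Without MG1 replicate 1, when the gland of mouse 1 has 4 Scd2 UMIs in these cells, the log2 fold change was 3.00 (edgeR adjusted p 2.50e-05). It was called higher against luminal secretory-like gland cells alone (2.05, edgeR adjusted p 4.98e-05) and when gland cells in tumor clusters, and tumor-library cells outside them, were left out (0.74, edgeR adjusted p 0.0304).

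Plin2 (chr4:86648386-86670060, minus strand), the coat protein of lipid droplets, rose in MT1 and fell in MT2. It was at 181 and 259 CPM in MG1 and at 679, 577, 653, 567 and 540 CPM in MT1, a 2.80-fold higher level (log2 fold change 1.49, SE 0.19, edgeR adjusted p 3.39e-06). It was at 608 and 485 CPM in MG2 and at 118, 147 and 123 CPM in MT2, a 4.23-fold lower level (log2 fold change −2.08, SE 0.18, edgeR adjusted p 9.62e-09). All libraries of a tumor lay on 1 side of those of the gland in each mouse. The call in mouse 1 depends on which gland cells are compared. Against luminal secretory-like gland cells alone, the log2 fold change of Plin2 was 0.14 (edgeR adjusted p 0.544).

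A direct test of the difference between the mice (change in mouse 1 minus change in mouse 2) called 6 of the 10 genes, 5 higher and 1 lower, where 43.5% of all genes were called (26.4% higher, 17.1% lower). The change was higher in mouse 1 for Fabp5 by 6.02 on the log2 scale (SE 0.32, edgeR adjusted p 5.93e-11), for Scd1 by 4.10 (SE 0.22, edgeR adjusted p 1.04e-10), for Plin2 by 3.57 (SE 0.26, edgeR adjusted p 4.22e-09) and for Fabp4 by 3.00 (SE 0.48, edgeR adjusted p 6.29e-05, and 2.06 without MG2 replicate 1). For Acly the difference was 0.65 (SE 0.25, edgeR adjusted p 0.0421), a call that was lost on leaving out any 1 of 11 libraries and held without MG1 replicate 2. The Acly call was also lost with another scaling (RLE, 0.49), with DESeq2 (0.50) and without the low-count filter (0.52). Scd2 had a lower change in mouse 1 (−2.98, SE 0.44, edgeR adjusted p 2.73e-05), which without MG1 replicate 1 was −0.41 and did not pass (edgeR adjusted p 0.729). Cd36, Lpl, Fabp3 and Fasn were not called in the difference (1.25, −0.85, −0.17 and −0.78, edgeR adjusted p 0.544, 0.358, 0.988 and 0.153). With stromal cells kept, Cd36 (1.79, edgeR adjusted p 0.0303) and Lpl (−1.74, edgeR adjusted p 0.00497) were called in the difference. The values outside the stromal clusters rest on the unlike MG1 libraries. Without MG1 replicate 2 the difference of Fabp3 was 5.18 (edgeR adjusted p 3.76e-05) and that of Cd36 4.55 (edgeR adjusted p 0.00312), and without MG1 replicate 1 that of Lpl was −1.85 (edgeR adjusted p 0.0037) and that of Fasn −1.60 (edgeR adjusted p 0.00127).

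The tumors were also compared with each other, without the glands. MT1 had more Fabp5 (50.5-fold, log2 fold change 5.66, edgeR adjusted p 5.79e-14), Fabp4 (13.5-fold, 3.76, edgeR adjusted p 2.30e-09), Scd1 (7.86-fold, 2.97, edgeR adjusted p 1.55e-12), Plin2 (4.66-fold, 2.22, edgeR adjusted p 5.79e-10) and Acly (1.48-fold, 0.57, edgeR adjusted p 0.00126) than MT2. It had 2.44-fold less Scd2 (−1.28, edgeR adjusted p 2.63e-05) and 1.48-fold less Fasn (−0.57, edgeR adjusted p 0.0309). The Fasn call was lost without MT1 replicate 4 or without any 1 of the MT2 libraries (edgeR adjusted p 0.0592 to 0.105). These 7 genes did not overlap between the tumors, where 68.4% of all genes were called (35.3% higher, 33.1% lower in MT1) and 63.2% did not overlap. Cd36, Lpl and Fabp3, at most 2.35 CPM in every tumor library, overlapped and were not called. With stromal cells kept, Cd36 was called higher in MT1 (log2 fold change 2.53, edgeR adjusted p 0.000375) and Lpl lower (−1.55, edgeR adjusted p 0.00039).

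With the mouse as the replicate (4 sums, 1 for each tissue of each mouse, the mouse as a block), edgeR called 0 of the 10 genes and 0% of 14945 genes. At an unadjusted p under 0.05 it had 14.7% of all genes, and among the 10 these were Fabp3 (unadjusted edgeR p 0.000943), Lpl (0.00261) and Cd36 (0.00447), all lower in tumors. DESeq2 on the same sums called 3 of the 10 lower, where it called 9.9% of the 13786 genes to which it gave an adjusted p (5.43% lower).

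How the UMIs of a gene family were divided between its members was then read, a measure chosen after the data had been seen. Of the Scd1 and Scd2 UMIs together, Scd1 made up 69.1% and 94.4% in the MG1 libraries, 96.7% and 94.3% in MG2, 92.5% to 94.7% in MT1, and 40.9%, 43.8% and 45.1% in MT2. The MT2 libraries thus lay apart from all 9 others. The difference between the tumors was 50.3 percentage points (exact two-sided permutation p 0.0357, the smallest that 56 arrangements can give, 0.107 adjusted over 6 such comparisons). MT2 was below MG2 by a difference of −52.2 points (exact permutation p 0.2, the smallest of 10 arrangements), and MT1 against MG1 was 11.8 points (exact permutation p 0.476, where 0.0952 is the smallest possible). Of the Fabp3, Fabp4 and Fabp5 UMIs, Fabp5 made up 54.4% and 9.60% in MG1, 40.0% and 48.5% in MG2, 95.3% to 97.7% in MT1 and 83.0%, 88.7% and 84.0% in MT2. All 8 tumor libraries were above all 4 gland libraries, although the Fabp5 level itself was lower in MT2 than in MG2. The tumor share was higher by 64.2 points in mouse 1 (exact permutation p 0.0952, the smallest of 21 arrangements, and 86.6 points without MG1 replicate 1 and 41.8 without MG1 replicate 2) and by 41.0 points in mouse 2 (exact permutation p 0.2), and MT1 was 10.9 points above MT2 (exact permutation p 0.0357). Scd1 and Scd2 share few sequences. Of the 30-base stretches of the Scd1 transcript, 5.43% occur in Scd2.

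**Figure D3:**
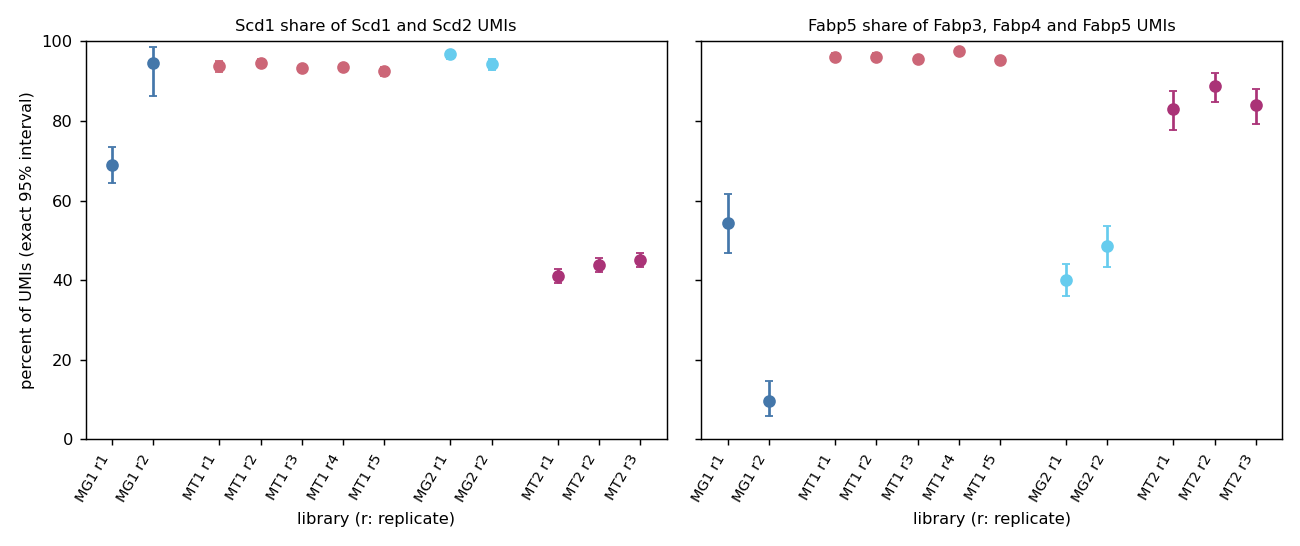
Share of Scd1 among Scd1 and Scd2 UMIs, and share of Fabp5 among Fabp3, Fabp4 and Fabp5 UMIs, in percent, in each of the 12 libraries outside the stromal clusters. Points are libraries and bars are exact 95% intervals, which cover counting error only. The 3 MT2 libraries lie at 40.9% to 45.1% in the Scd1 share, and MG1 replicate 2 lies lowest in the Fabp5 share (9.60%).

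The levels were next read by cell class, as CPM over the summed UMIs of all cells of a class, with no test between classes. In the glands Fasn, Scd1 and Plin2, and Fabp3 in MG2 and MG1 replicate 2, had more of their UMIs in luminal secretory-like cells than in any other class. The share of the gene's UMIs of the whole gland in that class was 80.6% and 91.5% for Fabp3 (MG1, MG2), 57.9% and 63.2% for Fasn, 59.8% and 76.7% for Scd1, and 77.4% and 71.3% for Plin2. Fabp3 was at 110 and 90.5 CPM in secretory-like cells against 10.5 and 7.54 CPM in hormone-sensing-like cells. Fasn was at 60.4 and 57.3 against 15.1 and 19.0 CPM, and Scd1 at 196 and 479 against 43.9 and 128 CPM. Plin2 was at 397 and 939 against 48.5 and 305 CPM. The order was the same in each of the 4 gland libraries for Fasn, Scd1 and Plin2. The MG1 values of Fabp3 rest on replicate 2, which had 131 of the 133 Fabp3 UMIs of the secretory-like cells, 122 of them in 5 cells. In MG1 replicate 1 Fabp3 had 6 UMIs in all, 2 of them in secretory-like cells and 1 in hormone-sensing-like cells, which is too few for an order. Scd2 had the opposite order, with 54.4 and 16.2 CPM in hormone-sensing-like cells and 9.94 and 3.65 CPM in secretory-like cells, although MG1 replicate 2 had only 1 and 2 Scd2 UMIs in these classes. Acly differed little between the classes, at 57.7 and 68.4 CPM in hormone-sensing-like cells and 49.7 and 56.2 CPM in secretory-like cells.

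**Figure D4:**
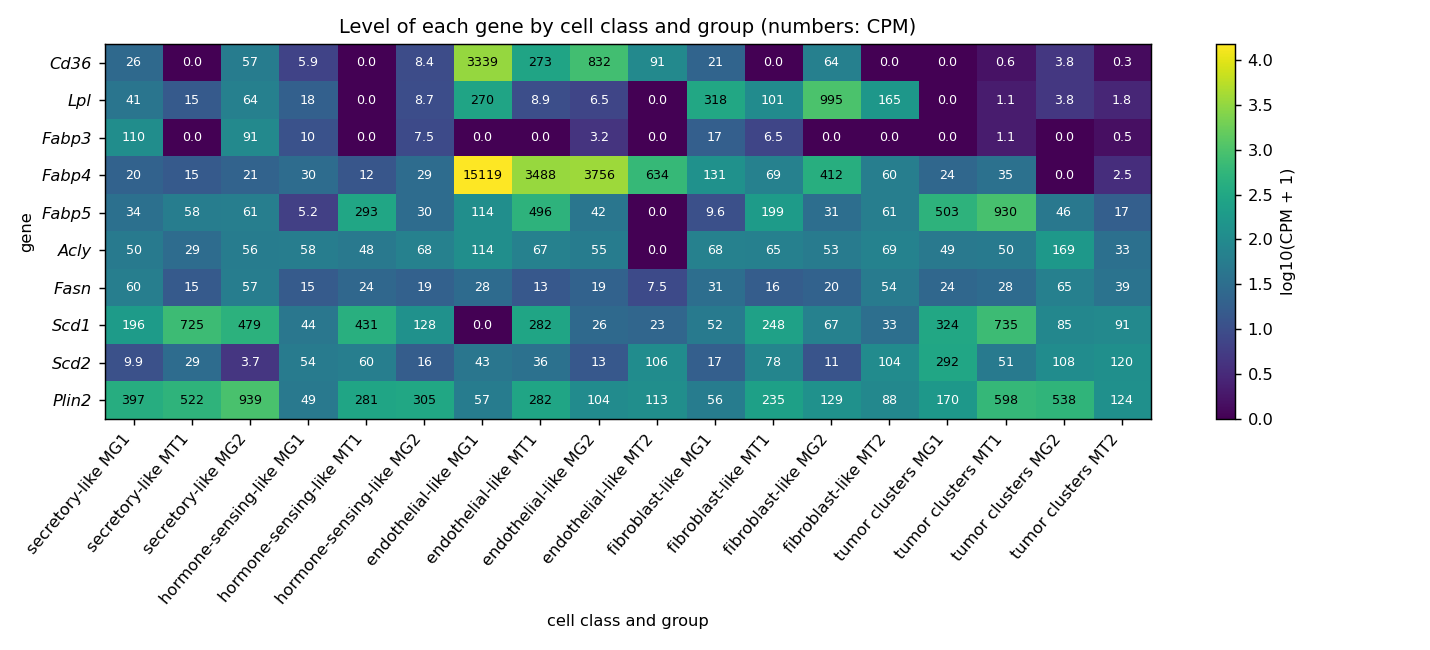
Level of each gene (CPM over the UMIs of the class, log colour scale) by cell class and group, with MG1, MT1, MG2 and MT2 in this order within a class. Classes with too few cells are not shown. Cd36 and Fabp4 are highest in endothelial-like cells of every group, Lpl in fibroblast-like cells of MG1, MG2 and MT1, and Fabp5 in the tumor cells of MT1.

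The uptake genes were most abundant in stromal classes. Cd36 in endothelial-like cells was at 3339, 832, 273 and 90.6 CPM (MG1, MG2, MT1, MT2), against 25.7 and 56.8 CPM in secretory-like cells of MG1 and MG2, and 0.6249 and 0.341 CPM in the tumor cells of MT1 and MT2. Endothelial-like cells, 244 in all, held 81.9%, 49.5%, 83.6% and 46.2% of the Cd36 UMIs of the 4 groups. In MG2 a further 39.1% came from secretory-like cells, and in MT2, with 26 Cd36 UMIs in all, the tumor cells held more (14, 53.8%) than the endothelial-like cells (12). A Cd36 UMI was found in 90%, 54.0%, 38.7% and 18.2% of endothelial-like cells (median 2748, 2401, 1954 and 2159 UMIs per cell), and in 75%, 37.9%, 19.4% and 9.09% after thinning every cell to 1000 UMIs. In tumor cluster 2 of MT1 the share was 0.169% (median 2118 UMIs over the cluster), and in tumor cluster 1 of MT2 it was 0.0784%.

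Fabp4 had the same leading class as Cd36. Its level in endothelial-like cells was 15119, 3756, 3488 and 634 CPM in MG1, MG2, MT1 and MT2, with a UMI in 95%, 72.4%, 81.7% and 54.5% of the cells (85%, 64.4%, 76.3% and 31.8% after thinning). Over 24 sums of class and group, the log2 levels of Fabp4 and Cd36 had a Pearson r of 0.91. These sums share libraries and depth. Outside the endothelial-like cells, Fabp4 was at 131 and 412 CPM in fibroblast-like cells of MG1 and MG2 and at 68.6 and 60.4 CPM in those of MT1 and MT2. In MT1 tumor cells it was at 75.3 CPM in cluster 5, 21.7 in cluster 2 and 4.44 in cluster 6. Of the cells of cluster 5, 2.87% had a UMI.

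Endothelial-like cells can be compared between gland and tumor, since the same class was found in both. Of the 5 genes with enough UMIs in the 10 libraries with 10 or more such cells, 2 were called lower in tumors, where 32.4% of the 1486 genes tested were called (17.4% lower). Cd36 was at 3305 CPM in MG1 replicate 1, 791 and 900 in MG2, 176, 155, 391 and 176 in MT1 replicates 2 to 5, and 30.2, 121 and 180 in MT2. Every tumor library lay below every gland library (log2 fold change −3.75, SE 0.34, mouse as covariate, edgeR adjusted p 5.28e-07). Fabp4 was at 16880 CPM in MG1 replicate 1, 3470 and 4238 in MG2, 2585, 3857, 3637 and 2818 in MT1, and 741, 576 and 480 in MT2. Within each mouse the tumor lay below the gland (log2 fold change −2.71, SE 0.20, edgeR adjusted p 1.66e-07), while MT1 and MG2 overlapped. Fabp5, Plin2 and Scd1 were not called in these cells (log2 fold change 0.29, 0.65 and 1.54). Without MG1 replicate 1 Fabp5 was called lower (−4.74, edgeR adjusted p 0.0417), and without MG2 replicate 1 Scd1 was called higher (3.38, edgeR adjusted p 0.0331). All 11 endothelial markers had UMIs in this class in every group, with a summed level of 5158, 4639, 4069 and 3797 CPM, and the epithelial list there summed to 2515, 1371, 4990 and 287 CPM. The cluster also had 7 of the 10 basal markers and 2 of the 6 mural markers higher than in the other cells. In the class the basal list summed to 384, 1059, 371 and 30.2 CPM, with 5, 10, 9 and 1 of its genes present, and the mural list to 227, 39.0, 26.8 and 143 CPM, with 2, 4, 2 and 4 present. The part of such cells in the calls of Cd36 and Fabp4 was not tested. The MG1 side rests on 15 cells of 1 library, and the enrichment step depleted endothelial cells in all groups.

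Lpl had most of its UMIs in stromal cells. In fibroblast-like cells it was at 318, 995, 101 and 165 CPM in MG1, MG2, MT1 and MT2, where the class held 62.5%, 56.6%, 54.4% and 42.1% of the UMIs of the gene. In MT2 immune-like cells, 178 in number, it was at 241 CPM and held a further 36.8%. Secretory-like cells had 41.4 and 64.4 CPM in MG1 and MG2, hormone-sensing-like cells 18.4 and 8.65, and tumor cells 1.09 and 1.80 in MT1 and MT2. Tumor cells, by far the largest class, held 36.8% and 20.8% of the Lpl UMIs of MT1 and MT2. Over all cells, the 4 adipocyte markers read summed to 17.3 to 28.1 CPM in the gland libraries and to 1.131 to 3.75 CPM in the tumor libraries. Of these markers, Retn went the other way, at 0 in every gland library and with UMIs in every MT2 library.

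In fibroblast-like cells, 7 of the 10 genes could be tested over 12 libraries, and 4 were called, 2 higher and 2 lower in tumors, where 46% of 2993 genes were called (22.8% higher, 23.2% lower). Lpl was at 368 and 170 CPM in MG1, 942 and 1042 in MG2, 97.0, 162, 101, 57.0 and 71.8 in MT1, and 207, 54.6 and 219 in MT2. It was lower in tumors (log2 fold change −2.29, SE 0.35, edgeR adjusted p 4.88e-05), without overlap in either mouse. Fabp4 was at 113 and 185 CPM in MG1, 453 and 377 in MG2, 0, 162, 25.2, 85.5 and 0 in MT1, and 52.4, 65.5 and 65.0 in MT2 (log2 fold change −2.26, SE 0.43, edgeR adjusted p 0.000401), with 1 MT1 library within the range of MG1. Scd2 was at 18.01 and 15.4 CPM in MG1, 18.1 and 5.24 in MG2, 0, 75.0, 75.5, 114 and 71.8 in MT1, and 102, 109 and 103 in MT2. It was higher in tumors (log2 fold change 2.4, SE 0.42, edgeR adjusted p 0.000219), although MT1 replicate 1 was at 0. Fabp5 was also higher (log2 fold change 2.46, SE 0.65, edgeR adjusted p 0.00509, and 1.82 without MG1 replicate 1 and 3.49 without MG2 replicate 1), at 12.9 and 0 CPM in MG1, 48.3 and 15.7 in MG2, 437, 62.5, 302, 228 and 126 in MT1, and 58.2, 32.7 and 92.3 in MT2. Scd1 was not called (log2 fold change 0.65), though it became called without MG2 replicate 1 (1.57). Cd36 had 0 UMIs in the 133 and 304 fibroblast-like cells of the tumors, and 21.2 and 64.5 CPM in those of MG1 and MG2. The fibroblast-like cluster also had 4 of the 6 mural markers higher than in the other cells. The part of mural cells in the calls of this class was not tested.

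Genes that were high in tumor cells were also read in the other cells of the same tumor. In MT1, the Fabp5 level of endothelial-like cells was 53.4% and that of fibroblast-like cells 21.4% of the tumor cells' level, and the summed epithelial marker list stood at 59.8% and 27.4% in the same cells. A Fabp5 UMI was in 44.1% of the endothelial-like and 24.8% of the fibroblast-like cells of MT1 (26.9% and 12.8% after thinning). Plin2 stood at 47.1% and 39.4%, and Scd1 at 38.3% and 33.8%. Epithelial markers thus moved with Fabp5 in these classes. Whether free RNA or doublets from tumor cells had a part in the Fabp5 call in fibroblast-like cells was not tested. Scd2 in fibroblast-like cells stood at 154% of the tumor cells' level in MT1 and 87.2% in MT2, where the epithelial list stood at 34.8%. In MT2 the Fabp5 level was 166 CPM in immune-like cells, with a UMI in 30.9% of them (14.6% after thinning), against 17.4 CPM in tumor cells and 0 UMIs in the 44 endothelial-like cells.

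Within the tumors the clusters differed among themselves. Fabp5 in MT1 was at 1170 CPM in cluster 2, 973 in cluster 5 and 280 in cluster 6, with a UMI in 74.2%, 62.1% and 42.1% of the cells (54.3%, 43.3% and 20.5% after thinning). In MT2 it was at 8.36, 24.2 and 20.6 CPM in clusters 1, 3 and 4, with a UMI in 3.14%, 9.37% and 5.30% of the cells. Each MT1 cluster was above each MT2 cluster. Scd1 in MT1 ranged from 1240 CPM in cluster 2 over 341 in cluster 5 to 141 in cluster 6, and in MT2 it was at 120, 66.6 and 77.5 CPM in clusters 1, 3 and 4. Plin2 followed with 872, 338 and 348 CPM in MT1 and 118, 131 and 121 CPM in MT2. Cluster 2 was the highest of the MT1 clusters for all 3 genes, and Fabp5 and Scd1 were among its 10 leading genes by fold.

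Acly and Fasn had another order within MT1. Acly was at 75.2 CPM in the unnamed cluster 6, 51.9 in cluster 2 and 32.2 in cluster 5, and Fasn was at 51.7, 25.4 and 15.7 CPM. Scd2 had 68.3 and 51.7 CPM in clusters 2 and 5 and 7.05 CPM in cluster 6. Cluster 6 was thus the highest of the MT1 clusters for the early synthesis genes and the lowest for both desaturases. In MT2, Scd2 was nearly even over the clusters, at 123, 112 and 128 CPM in clusters 1, 3 and 4.

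The secretory-like cells of the glands were then compared library by library. They numbered 247 and 31 in the MG1 libraries and 465 and 451 in MG2. Fabp3 was at 1.96 CPM (exact Poisson 95% interval 0.238 to 7.09) in MG1 replicate 1, at 693 (580 to 823) in MG1 replicate 2, and at 115 and 65.3 in the MG2 libraries. Cd36 was at 1.96 and 153 CPM in MG1 and at 70.1 and 43.0 in MG2. Lpl was at 18.7 and 164 CPM in MG1 and at 75.0 and 53.3 in MG2. In this class too, MG1 replicate 1 was lowest and MG1 replicate 2 highest, with MG2 between them. Fasn had 31.4 and 217 CPM in MG1 and 59.0 and 55.6 in MG2, while Scd1 (173 and 323 in MG1, 536 and 420 in MG2) and Plin2 (353 and 630 in MG1, 1033 and 841 in MG2) were higher in MG2 than in both MG1 libraries.

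**Figure D5:**
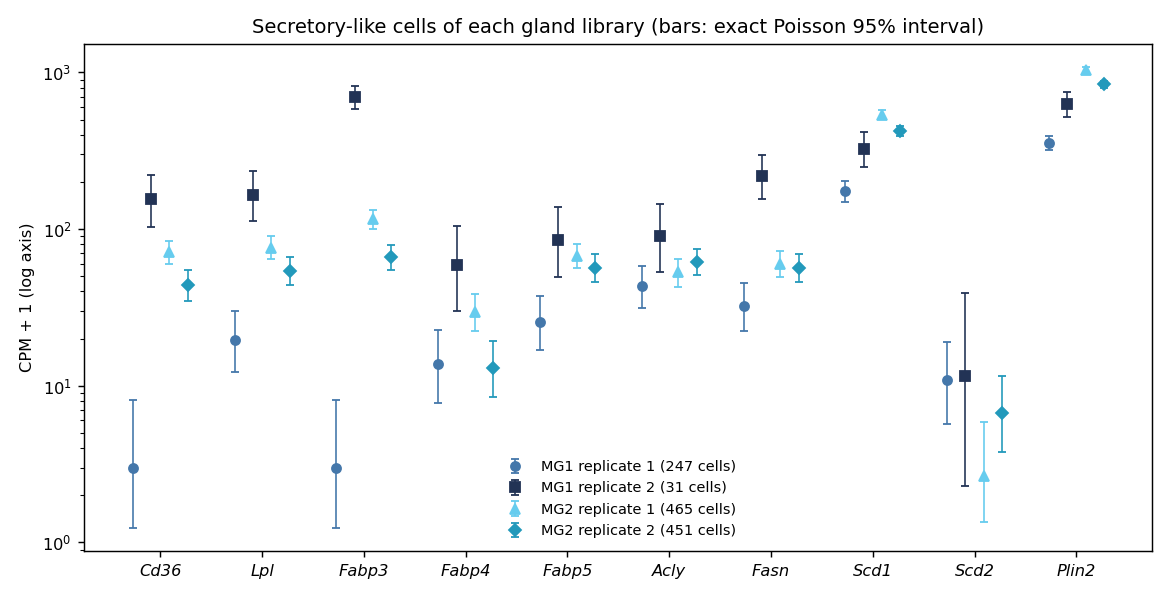
Level of each gene in luminal secretory-like cells of the 4 gland libraries (CPM + 1, log axis), with exact Poisson 95% bars that cover counting error only. The libraries hold 247 and 31 (MG1) and 465 and 451 (MG2) such cells. Fabp3 and Cd36 are both at 1.96 in MG1 replicate 1 and at 693 and 153 in MG1 replicate 2.

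The make-up of the MG1 libraries was set beside these levels. Secretory-like cells made up 34.6% of MG1 replicate 1 and 29.5% of MG1 replicate 2, fibroblast-like cells 14.3% and 22.9%, and endothelial-like cells 2.10% and 4.76%. Over the classes found in both libraries, the Fabp3 level of replicate 1 was 2.02 CPM with its own class shares and 2.03 CPM with those of replicate 2, while replicate 2 had 233 CPM. For Fasn these values were 23.2, 23.1 and 77.5 CPM, and for Scd2 34.3, 33.7 and 10.4 CPM. The genes led by stromal classes moved more. Lpl went from 64.96 to 89.7 CPM, beside 105.8 CPM in replicate 2. Cd36 went from 60.9 to 103.7 CPM with the class shares of replicate 2, beside 158 CPM in replicate 2, and Fabp4 from 327 to 546 CPM, beside 398 CPM. Of the 138 Scd2 UMIs of all cells of replicate 1, 82 were in its 241 hormone-sensing-like cells (65.2 CPM) and 36 in the 14 cells in tumor clusters (292 CPM). Replicate 2 had 7 Scd2 UMIs in all, 1 of them in its 27 hormone-sensing-like cells (3.75 CPM), and no cell in a tumor cluster. MG2 had 14.4 and 18.03 CPM in hormone-sensing-like cells.

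The high Fabp3 of MG1 replicate 2 came from few cells. Secretory-like cells with 3 or more Fabp3 UMIs, a cut chosen after the data had been seen, were 0 of 247 in MG1 replicate 1 (which allows a share of up to 1.21%), 5 of 31 in MG1 replicate 2 (16.1%, exact 95% interval 5.45 to 33.7), 19 of 465 in MG2 replicate 1 (4.09%) and 12 of 451 in MG2 replicate 2 (2.66%). In MG1 replicate 2 those 5 cells held 122 of the 131 Fabp3 UMIs of the class and all 29 of its Cd36 UMIs. A Fabp3 UMI of any number was in 12 of the 31 secretory-like cells of MG1 replicate 2 (38.7%) and in 12 of its 27 hormone-sensing-like cells (44.4%), and in 1 of 247 and 1 of 241 such cells of MG1 replicate 1. After thinning to 1000 UMIs, 6 secretory-like cells (19.4%) and 0 hormone-sensing-like cells of replicate 2 had one. In MG2 it was in 7.21% and 1.18% of these classes. In MG1 and MG2 it was in 0 of 20 and 1 of 87 endothelial-like cells.

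The cells with 3 or more Fabp3 UMIs also had high levels of other genes, which is given as a description, since the cells were chosen by Fabp3 and were the deeper ones (median 8591, 7910 and 5626 UMIs per cell in MG1 replicate 2, MG2 replicate 1 and MG2 replicate 2, against 4139, 2435 and 2531 in the rest). Cd36 was at 538, 453 and 554 CPM in them and at 0, 32.7 and 17.4 CPM in the other secretory-like cells of the same libraries. Lpl was at 556, 459 and 362 against 7.40, 37.5 and 37.9 CPM. Scd1 was at 834, 992 and 1157 against 118, 492 and 383 CPM. Fasn was at 667, 124 and 157 against 37.0, 52.7 and 50.5 CPM, and Plin2 at 964, 1532 and 1012 against 496, 985 and 832 CPM. Each of these 5 genes was higher in the selected cells of each of the 3 libraries, and Scd2 had 0 UMIs in the selected cells. In MG1 replicate 2 the milk protein genes Csn2 and Wap were at 40231 and 2169 CPM in the 5 cells and at 1392 and 22.2 CPM in the other 26.

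Genes with the most similar pattern over the 24 sums of class and group were named for each of the 10 genes by Pearson correlation of log2 levels, as a description. Cd36 and Fabp4 were nearest to vascular genes, Ptprb and Acvrl1 for Cd36 (r 0.92 each, as for Insr) and Jam2, Acvrl1 and Flt1 for Fabp4 (0.94, 0.93 and 0.93). Lpl was nearest to Ggt5, Gpnmb and Srpx (0.82, 0.82 and 0.80). Fabp3 was nearest to Lao1 (0.90), the whey protein gene Wap (0.87) and the alpha-lactalbumin gene Lalba (0.85), genes of milk. Fabp5 was nearest to its pseudogene Gm6166 (0.94), with which it shares sequence, then to Gpx2 and Atg101 (0.82 each). Scd1 was nearest to 4931406C07Rik, Fen1 and BC006965 (0.89, 0.85 and 0.84), and Scd2 to Tor1b, Cops9 and Tpi1 (0.84, 0.80 and 0.79). Plin2 was nearest to the acyl-CoA binding protein gene Dbi (0.84), Scd1 (0.83) and 4931406C07Rik (0.78). Acly (Hyou1, Pcyt1a and Ankrd13a, 0.74, 0.71 and 0.70) and Fasn (Celf1, Arhgef40 and Notch2, 0.68, 0.67 and 0.66) had no gene as close.

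The wider pathway was read in 5 lists of 75 genes, of which 73 are in the table. Of 13 tested genes for synthesis, elongation and desaturation beyond the 10, 8 rose and 0 fell in MT1 against MG1, while 5 rose and 4 fell in MT2 against MG2 (median log2 fold change 0.74 and −0.22). The medians over all genes were 0.11 and −0.05, and 32.2% of all genes tested rose and 27.1% fell in mouse 1, and 32.7% and 34.2% in mouse 2. Of this list 8 and 9 of 13 were called, beside 59.3% and 67% of all genes. Aacs, which makes acetoacetyl-CoA in the cytosol, rose in both (log2 fold change 2.16 and 2.69, edgeR adjusted p 4.80e-05 and 1.33e-08), as did the elongase gene Elovl6 (1.83 and 0.89, edgeR adjusted p 1.01e-05 and 0.00109). Fads1, a desaturase gene, went opposite ways (1.17 and −0.52, edgeR adjusted p 0.000541 and 0.0171). Thrsp, a gene of lipogenic tissue, rose in MT1 (1.37, edgeR adjusted p 0.0319) and had 0 UMIs in MT2 against 125 in MG2, at least 194-fold lower with 3 counts over the group as the floor.

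Of 12 tested genes for uptake and activation, 6 rose and 3 fell in MT1, and 5 rose and 5 fell in MT2 (median 0.65 and −0.27), that is, 9 and 10 of 12 called, beside 59.3% and 67% of all genes. The transporter gene Slc27a1 fell in both (−1.26 and −3.00, edgeR adjusted p 0.00594 and 1.31e-08). Slc27a3 had 0 UMIs in MG1 and 41 in MT1, at least 2.12-fold higher, and rose in MT2 (1.48, edgeR adjusted p 0.0191). Vldlr rose in MT1 and fell in MT2 (1.54 and −1.36, edgeR adjusted p 8.74e-05 and 4.07e-06), and Lrp1 rose in MT2 (3.50, edgeR adjusted p 3.24e-10) and was not called in MT1 (−0.48, edgeR adjusted p 0.192).

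Of 17 tested genes for triglyceride assembly and lipid droplets, 4 rose and 8 fell in MT1, and 2 rose and 10 fell in MT2 (median −0.63 and −0.79), beside 27.1% and 34.2% of all genes that fell. Btn1a1, whose product helps release the milk fat globule, fell in MT1 (−4.66, edgeR adjusted p 1.72e-08) and had 0 UMIs in MT2 against 447 in MG2, at least 694-fold lower. Cidea, a gene of lipid droplet fusion, fell in MT1 (−4.19, edgeR adjusted p 1.28e-07) and had 0 UMIs in MT2 against 386 in MG2, at least 599.5-fold lower. Of 15 tested genes for lipolysis and mitochondrial oxidation, 4 rose and 6 fell in MT1, and 0 rose and 9 fell in MT2 (median −0.39 and −0.66). The 10 of 15 called in MT1 and 9 of 15 in MT2 are near the 59.3% and 67% of all genes. Lipe and Pnpla2, the lipase genes of stored fat, fell in both mice (Lipe −2.94 and −4.68, edgeR adjusted p 4.39e-06 and 2.09e-09, and Pnpla2 −1.68 and −4.55, edgeR adjusted p 0.000465 and 2.23e-09). The oxidation genes Cpt2 (2.50, edgeR adjusted p 0.00128) and Acadl (1.35, edgeR adjusted p 9.58e-07) rose in MT1, and Acadl fell in MT2 (−0.66, edgeR adjusted p 0.000559).

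Of 10 tested genes for transcription control of lipid metabolism, 3 rose and 2 fell in MT1, and 5 rose and 3 fell in MT2 (median 0.05 and 0.45), beside the same 59.3% and 67% of all genes called in either direction. None of these medians moved when the genes with 0 UMIs in a group were set to their bounds, apart from −0.76 for triglyceride assembly and lipid droplets in MT1, where Gpam was left out. Pparg, a nuclear receptor of which Cd36, Fabp4 and Plin2 are known targets, fell in MT1 (−3.42, edgeR adjusted p 9.05e-06) and rose in MT2 (2.13, edgeR adjusted p 1.67e-06). Its mean level was 6.58 and 3.43 CPM in the glands of mouse 1 and mouse 2 and 0.688 and 15.1 CPM in their tumors, and the difference between the mice was −5.55 on the log2 scale (edgeR adjusted p 2.50e-07). Between the tumors, Plin2 and Fabp4 were higher in MT1, where Pparg was lower, and Cd36 was not called. The part of Pparg in the levels of these genes was not tested. Mlx rose in both mice (1.67 and 1.19, edgeR adjusted p 1.57e-06 and 2.33e-06) and Scap, the escort of the sterol-sensing factors, fell in both (−1.32 and −0.57, edgeR adjusted p 0.00025 and 0.0238).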

How the data were processed

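Drop-seq libraries (12) were made from epithelium-enriched suspensions. Per the labels and the study's methods, the authors aligned reads with STAR to GRCm38.p6 and deposited UMI counts, neither scaled nor normalized, of 21157 cells with at least 800 genes each. Whether strand was used, and how reads of close paralogs were assigned, is not given in the sources used here. All cell columns could be assigned to a library (0 unassigned), and replicate numbers are in accession order, so they pair nothing.

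The genes, lists, classes and tests were chosen with earlier results of these data known. Clusters were made without the 10 genes and the pathway lists (python 3.11.15 with scanpy 1.11.5 and, for the Leiden step at resolution 0.6, leidenalg 0.10.2), from 30 components of 3000 variable genes and 20 neighbours. Clusters were named "-like" from at least 3 markers at a log2 fold of 1 or more (pseudocount 10 CPM), and may differ from the study's own cell types. Doublets were not removed. Only 45 cells (0.213%) were marked by the caller, which therefore has not worked, and an alternative leaves out the highest 5% of its scores.

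For each library counts were summed and fitted in R 4.3.3 by edgeR 4.0.16 (quasi-likelihood test, TMM, filterByExpr, 4 groups in 1 fit, Benjamini-Hochberg adjusted p under 0.05), with class sums (libraries with 10 or more cells of the class) fitted with the mouse as covariate. In the fit of 4 sums the mouse was the block, since the labels give gland and tumor of the same animal. DESeq2 1.42.0, other scalings and filters, other cells and leaving out each library were alternatives. Family shares were tested with exact two-sided permutation (scipy 1.17.1). Levels by class and shares of cells with a UMI (thinned to 1000 UMIs) are descriptions. Intervals are exact (95%) and, like the floor of 3 counts, cover counting error only. All 10 genes are named. From each pathway list the text names up to 2 genes with the largest change among those called with 1 sign in both mice, and that with the largest difference between the mice. Genes called with opposite signs were named after their values were seen, and not all of them are reported here. The tests were tried on simulated counts.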

Additional observations from a re-analysis of the deposited data

Results flagged for a closer look

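The change from gland to tumor differed between the mice for 6 of the 10 genes by the test of the difference itself (edgeR, change in mouse 1 minus change in mouse 2, on the log2 scale), where 43.5% of all genes tested were called (26.4% higher, 17.1% lower). The difference was 6.02 for Fabp5 (adjusted p 5.93e-11), 4.10 for Scd1 (1.04e-10), 3.57 for Plin2 (4.22e-09) and 3.00 for Fabp4 (6.29e-05). For Fabp5, Scd1 and Plin2 the groups were apart in both mice and in opposite directions, with every MT1 library above MG1 and every MT2 library below MG2. For Fabp4 the MT2 libraries lay below MG2, while MT1 and MG1 overlapped.

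Scd2 differed by −2.98 (adjusted p 2.73e-05), with every MT2 library above MG2 and 4 of the 5 MT1 libraries between those of MG1. This value rests on MG1 replicate 1, without which it was −0.41. Acly differed by 0.65 (adjusted p 0.0421), the smallest of these, and passed without MG1 replicate 2 and in no other fit that left out 1 library. It did not pass with another scaling, with DESeq2 or without the low-count filter. Only MT1, with 5 libraries, was large enough to search for a library far from the rest, and 0 were found over 12 values (the 10 genes and the 2 family shares). The unlike MG1 pair could not be searched in this way.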

How the results depend on the processing

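Of the log2 fold changes of the 10 genes, 566 kept direction and call when 1 library was left out, 16 changed direction (2 of these became called), 7 became called without a change of direction and 19 lost their call. Under the other alternatives 399 kept both, 8 changed direction (1 of these became called), 11 became called without a change of direction and 10 lost their call. The number of genes called stayed within 1.5 times the main number in all fits but 1, the 4 sums, where DESeq2 called 3 and edgeR 0. Without the mouse as block (no replicate pairing), edgeR also called 0 in the 4 sums. The causes were not tested.

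Leaving out 1 library in turn turned the direction of values that did not pass the test with all libraries, mostly through the MG1 pair, and the Fabp3 difference without MG1 replicate 2 and Fabp5 in endothelial-like cells without MG1 replicate 1 became called in the other direction. In MT1 against MG1, Acly ranged from −0.31 to 0.0285, Fabp4 from −0.53 to 0.16, Fasn from −1.43 to 0.14 and Scd2 from −0.0503 to 3.00. In the difference between the mice, Cd36 ranged from −0.26 to 4.55, Fabp3 from −1.39 to 5.18 and Lpl from −1.85 to 0.33. In MT1 against MT2, Cd36 ranged from −0.0628 to 1.25. In fibroblast-like cells Acly ranged from −0.22 to 0.0577 and Plin2 from −0.14 to 0.87, and in endothelial-like cells Fabp5 ranged from −4.74 to 0.56 and Scd1 from −0.29 to 3.38. In MT1 against MG1 the Scd1 share ranged from −0.879 to 24.5 percentage points and the Fabp5 share from 41.8 to 86.6.

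With luminal secretory-like cells alone on the gland side, Fabp4 in mouse 1 was 0.42 and Fasn in mouse 2 −0.52, Plin2 in mouse 1 lost its call, and Fasn (−1.78) and Scd2 (2.05) in mouse 1 became called. With hormone-sensing-like cells alone, Fabp4 in mouse 1 was 0.23, Fasn in mouse 1 0.84 (edgeR adjusted p 0.0494) and the Fabp3 difference between the mice 0.0823, Scd1 in mouse 2 was −0.28 and lost its call, and Fasn in mouse 2 (1.23) and the Lpl difference (−2.13) became called. Without the gland cells in tumor clusters, Scd2 in mouse 1 (0.74) became called. The call of the Acly difference was lost in these 3 settings (0.36 to 0.59). It was also lost with another scaling (RLE, 0.49), with DESeq2 (0.50) and without the low-count filter (0.52). The same held with stromal cells kept (0.48) and without the highest 5% of doublet scores (0.54). With stromal cells kept, the Fabp3 difference was 0.0683, and Fabp4 in mouse 1 was called at −2.22. Cd36 and Lpl then became called in the difference between the mice (1.79 and −1.74) and in MT1 against MT2 (2.53 and −1.55). With 20 or more cells per library, Acly in fibroblast-like cells was 0.0146, and DESeq2 gave −0.66 for Fabp5 in endothelial-like cells. With DESeq2, Fasn in MT1 against MG1 became called (−1.004, DESeq2 adjusted p 0.0106). Of the class levels, 686 stayed within their spread under the alternatives and 74 moved, 43 of these when cells were classed 1 by 1 by their markers. Of the shares of cells with a UMI, 444 stayed within their interval with other or no thinning and 296 moved. In MG1, depth limits what can be seen, with 31 secretory-like cells in 1 library and 20 endothelial-like cells in all.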
